A study of Homo sapiens with 2 samples.

Results

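The SLC25 family holds the transporters that carry nucleotides, phosphate, amino acids, carboxylates, acylcarnitines, cofactors and iron across the inner membrane of mitochondria, and its members share a fold of repeated units. The uncoupling proteins belong to it, and MTCH1 and MTCH2 are members that sit in the outer membrane. Because the inner membrane is closed to most solutes, these carriers join the metabolism of the matrix to that of the cytosol in every cell type, the colon epithelium included. Members were genes whose annotated symbol begins with SLC25A, together with UCP1, UCP2, UCP3, MTCH1 and MTCH2, with 1 pseudogene left out. This gave 50 genes on the array. Of these, 48 are protein-coding and are called carriers here, and 2 are antisense RNAs, which encode no carrier and are given apart. A ratio other than 0 on both arrays was held by 43 carriers, among 12842 genes in all, and 5 carriers lacked it on at least 1 array.

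COLO320 cells, a human colorectal cancer line with neuroendocrine features, were transfected with 100 nM of siRNA 6 or siRNA 8 against CDX2, the gene of an intestinal homeobox protein that regulates transcription. Control cells received a non-targeting siRNA, and all were harvested 24 h after the medium had been changed. Each of 2 two-colour arrays held RNA of 1 CDX2 siRNA in Cy5 and time-matched control RNA in Cy3, so a ratio sets CDX2 siRNA over control. The 2 siRNAs serve as replicates, with n = 2 in every test. All values are log2 ratios from 1 cell line, with no swap of dyes, and n = 2 limits the precision. A ratio holds no level, so the identity of the cells could not be checked against markers, and fewer cells expressing a gene cannot be told apart from less RNA per cell.

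CDX2, the targeted gene, was reduced to 37.0% of its control value by siRNA 6 and to 37.7% by siRNA 8. Its mean log2 ratio was -1.42 ± 0.0192 (SD, n = 2; limma, adjusted p = 0.00164).

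Among the 43 carriers, 2 rose with CDX2 siRNA, 12 fell and 29 did not pass an adjusted p of 0.05 in limma. The carriers that fell most were SLC25A45, a relative of the carnitine carrier, at 3.97-fold lower, and UCP3, an uncoupling protein, at 2.84-fold lower. SLC25A2, an ornithine carrier, was 5.83-fold higher and SLC25A52, a carrier of NAD, 3.05-fold higher. The carriers of the main traffic of oxidative phosphorylation, for ADP and ATP (SLC25A4, SLC25A5) and for phosphate (SLC25A3), lay between log2 -0.20 and 0.07 and did not pass. SLC25A6, also listed for ADP and ATP, was not among the carriers on the array.

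These counts were close to those of the array as a whole or below them. Of the carriers, 4.65% were higher and 27.9% lower, against 12.1% higher and 28.6% lower of all 12842 genes, where 40.7% passed in all. The median log2 ratio of the carriers was -0.20, against -0.13 for all genes. With each array centred on the median of all genes the carriers' median was -0.07, and the split of all genes was 2113 higher and 2915 lower, against 1556 higher and 3669 lower without centring. At least 1.5-fold on both arrays were 2 carriers higher and 8 lower, where 7.8% of all genes were higher and 18.4% lower by that rule. In 194 solute carriers outside family 25, 31 rose and 58 fell, with a median of -0.16, and the difference from family 25 was not tested. The share of carriers that fell was near the background, so it is no result about the carriers as a group. When zeros of the table were kept as values, limma passed 0 of 48 carriers and 0 of all 18334 genes. At an unadjusted p under 0.05, 3 carriers were then higher and 14 lower, beside 1834 and 3384 of all genes.

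**Figure D1:**
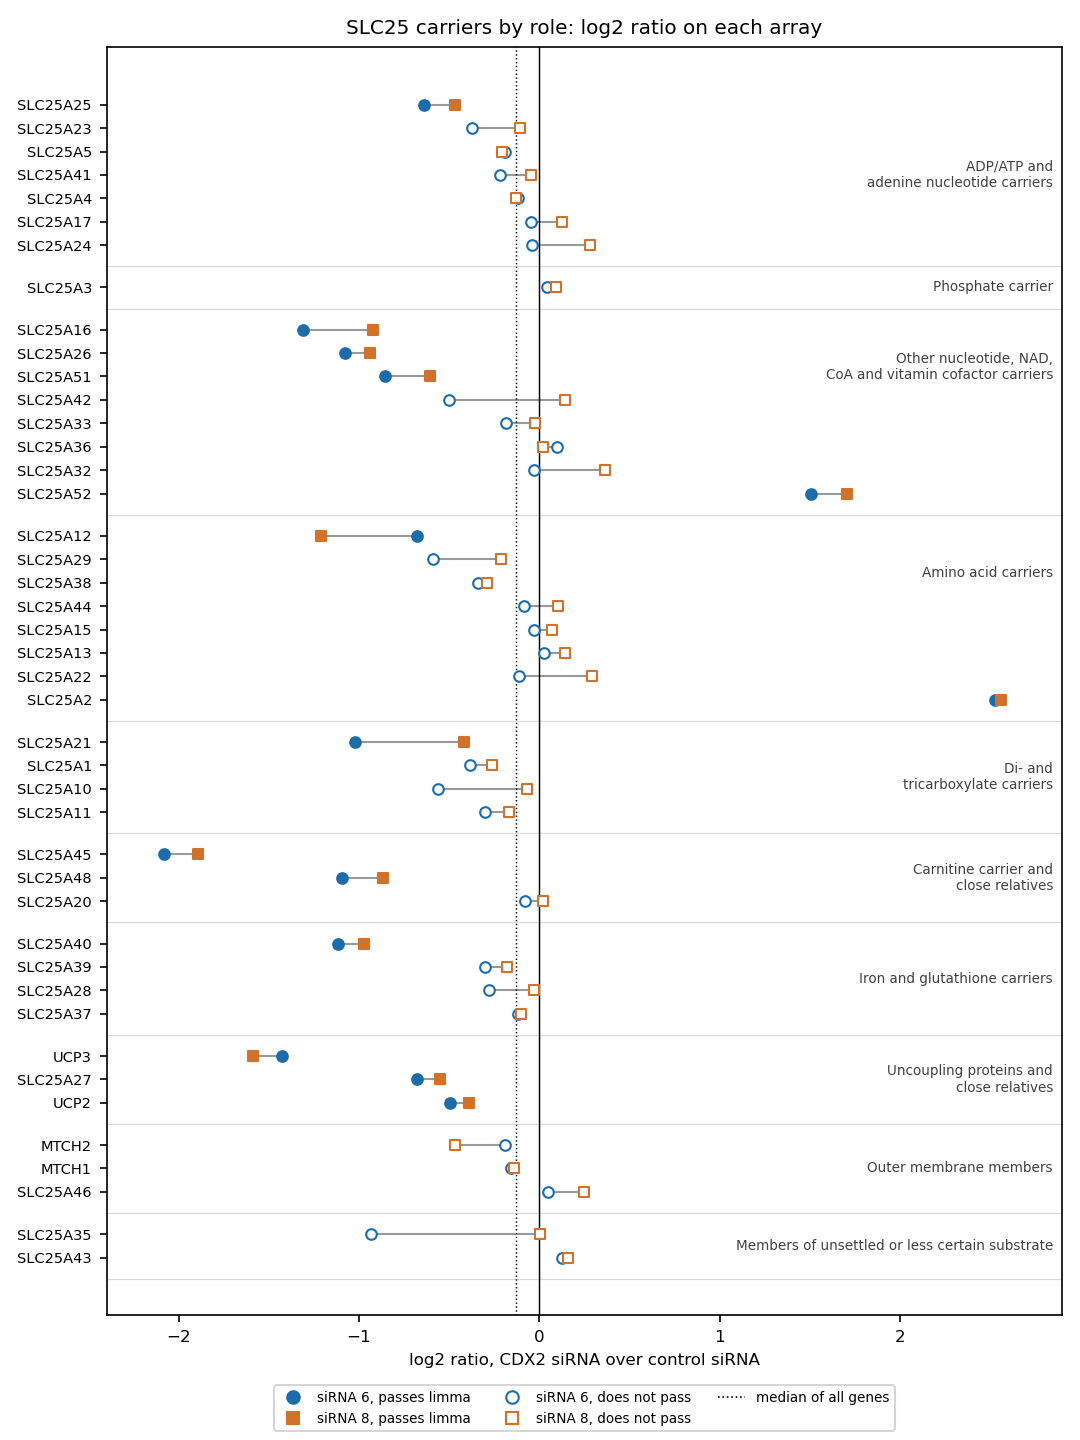
Log2 ratio (CDX2 siRNA over control, horizontal axis) of each of the 43 carriers with siRNA 6 (circles) and siRNA 8 (squares), grouped by role; filled symbols pass limma at an adjusted p of 0.05. The 2 carriers that rose, SLC25A2 and SLC25A52, stand far right, the 12 that fell lie left of zero on both arrays, and most others lie near the dotted line, the median of all genes at -0.13.

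Of the 7 carriers of adenine nucleotides with a ratio, 1 fell and 6 did not pass. For this and the following groups by role the background is 28.6% of all genes lower and 12.1% higher. SLC25A4, the ADP/ATP translocase of muscle and heart, had log2 ratios of -0.12 with siRNA 6 and -0.13 with siRNA 8. SLC25A5, the isoform of proliferating cells, had -0.19 and -0.21 in the same order, from 5 features that ranged from -0.46 to 0.13. The 2 proteins are close relatives, so a feature of either may bind the RNA of both. SLC25A5 had 1 feature that passed when each feature was tested on its own (limma, adjusted p = 0.0465), at -0.34 with siRNA 6 and -0.58 with siRNA 8, and its other 4 features did not.

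Of the ATP-Mg/phosphate carriers, which adjust the adenine nucleotide pool of the matrix, SLC25A25 fell. It stood at log2 -0.64 with siRNA 6 and -0.47 with siRNA 8 (mean -0.55 ± 0.121, SD, n = 2; limma, adjusted p = 0.0175). The fall came from 1 of its 2 features, which stood at -1.36 and -1.17 for siRNA 6 and siRNA 8, while the other stood at 0.09 and 0.24. In limma's test against a fold of 1.2 it no longer passed (adjusted p = 0.0696). SLC25A23, SLC25A24 and SLC25A41 had means of -0.24, 0.12 and -0.13, and SLC25A17, the family's carrier in peroxisomes, had 0.04. None of these 4 passed. SLC25A31, a testis ADP/ATP carrier, had no ratio on both arrays, and SLC25A6 was not among the carriers on the array. SLC25A3, the phosphate carrier, stood at 0.04 with siRNA 6 and 0.10 with siRNA 8.

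The carriers of cofactors and other nucleotides held both falls and a rise. SLC25A26, which brings S-adenosylmethionine into the matrix, stood at log2 -1.08 with siRNA 6 and -0.94 with siRNA 8, or 2.01-fold lower (limma, adjusted p = 0.00362). Both of its features were lower and passed on their own, but they differed in size, with means of -1.65 and -0.37. SLC25A16, a member named in work on Graves disease, stood at -1.31 and -0.92 from 1 feature and was 2.16-fold lower (adjusted p = 0.00639). SLC25A42, the coenzyme A carrier, was at -0.50 with siRNA 6 and 0.14 with siRNA 8 and did not pass. SLC25A33 and SLC25A36, which carry pyrimidine nucleotides, had means of -0.10 and 0.06, and SLC25A32, which carries folate and flavin cofactors, had 0.17. None of these passed.

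The pair of carriers for NAD stood on opposite sides of control on both arrays. SLC25A51 had log2 ratios of -0.85 with siRNA 6 and -0.61 with siRNA 8. Its mean was -0.73 ± 0.174 (SD, n = 2; limma, adjusted p = 0.0110). Its 2 features, of different accessions, had nearly the same means, -0.75 and -0.71, and both passed on their own. This was the smallest difference between features but 1 among the 16 carriers with 2 or more of them. SLC25A52, its close paralogue, had 1.51 with siRNA 6 and 1.70 with siRNA 8, from 1 feature. Its mean was 1.61 ± 0.139 (SD, n = 2; limma, adjusted p = 0.00169). The coding sequences of the paralogues are much alike, and the sources used here do not say how far each feature tells them apart. The values of both genes are uncertain in this respect.

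The bases before the annotated start of each gene are shown because the features of the paralogues gave ratios of opposite sign. A link between these windows and the ratios was not tested. They come from RefSeq, build GRCh38.p14, with 250 bases each, 5′ to 3′ on the strand of the gene. SLC25A51 lies on chromosome 9 (chr9:37904128-37904377, minus strand) and SLC25A52 on chromosome 18 (chr18:31760881-31761130, minus strand). Capitals mark the best local alignment between the windows, 53 bases in each.
SLC25A51: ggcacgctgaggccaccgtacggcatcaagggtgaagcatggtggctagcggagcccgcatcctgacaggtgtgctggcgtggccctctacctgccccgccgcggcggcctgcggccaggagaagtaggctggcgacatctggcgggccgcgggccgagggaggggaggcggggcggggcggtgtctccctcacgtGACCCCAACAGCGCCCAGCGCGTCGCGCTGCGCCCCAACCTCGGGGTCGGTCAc
SLC25A52: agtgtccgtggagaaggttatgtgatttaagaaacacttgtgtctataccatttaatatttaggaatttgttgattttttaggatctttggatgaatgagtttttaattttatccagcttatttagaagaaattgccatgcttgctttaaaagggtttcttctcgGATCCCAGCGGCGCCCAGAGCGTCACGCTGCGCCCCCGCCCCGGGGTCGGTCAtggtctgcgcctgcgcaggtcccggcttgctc
Within the capitals 84.9% of the bases were identical. This stretch ends 2 bases before the start of SLC25A51 and 33 bases before that of SLC25A52. The window of SLC25A51 as a whole was 73.6% G and C with 28 CpG pairs, and that of SLC25A52 was 46.8% with 13.

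Among amino acid carriers 1 rose, 1 fell and 6 did not pass. SLC25A2, an ornithine carrier of the urea cycle, had log2 ratios of 2.53 with siRNA 6 and 2.56 with siRNA 8, nearly the same on both arrays. The mean was 2.54 ± 0.0263 (SD, n = 2; limma, adjusted p = 0.000683). It was measured by 1 feature and lay at percentile 97.1 of all genes. SLC25A15, the main ornithine carrier of liver, stood at -0.03 and 0.07 and did not pass.

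SLC25A12, one of the 2 aspartate/glutamate carriers of the malate-aspartate shuttle, had log2 ratios of -0.68 with siRNA 6 and -1.21 with siRNA 8 (mean -0.94 ± 0.376, SD, n = 2; limma, adjusted p = 0.0164). Its 2 features, both annotated to the same accession, disagreed in direction. The first stood at -1.58 with siRNA 6 and -2.63 with siRNA 8, and the other at 0.22 and 0.21. The fall of SLC25A12 thus rests on 1 feature, and the gap of 2.32 between the feature means was the largest of the 16 carriers with 2 or more features. SLC25A13, the other aspartate/glutamate carrier, had a mean of 0.08 and did not pass.

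The remaining amino acid carriers did not pass. SLC25A29, for basic amino acids, stood at -0.59 with siRNA 6 and -0.21 with siRNA 8, and SLC25A38, for glycine, at -0.34 and -0.29. SLC25A22, for glutamate, had -0.11 and 0.29, and SLC25A44, for branched-chain amino acids, -0.08 and 0.10. The limma adjusted p of these 4 ran from 0.0549 for SLC25A38 to 0.946 for SLC25A44. SLC25A18, a further glutamate carrier, had no ratio on both arrays.

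Of the 4 carriers of di- and tricarboxylates 1 fell and 3 did not pass, where 28.6% of all genes fell. All 4 had negative ratios on both arrays. The median of all genes was negative on both as well, at -0.14 with siRNA 6 and -0.12 with siRNA 8. SLC25A21, the oxodicarboxylate carrier, stood at log2 -1.02 with siRNA 6 and -0.42 with siRNA 8 (mean -0.72 ± 0.429, SD, n = 2; limma, adjusted p = 0.0419). The spread between arrays was the widest of the carriers that passed. It did not pass with each array centred (adjusted p = 0.0702), or against a fold of 1.2 (0.104). Though it has 1 feature, it also did not pass when other genes took the lower (0.0576) or the higher (0.0552) of their middle features, since the variance prior and the adjustment rest on all genes. SLC25A1, the citrate carrier that supplies fatty acid synthesis, had -0.39 and -0.26 (adjusted p = 0.0584). SLC25A10, the dicarboxylate carrier, had -0.56 and -0.07, and SLC25A11, the oxoglutarate/malate carrier, had -0.30 and -0.17. The means of these 3 lay between -0.32 and -0.23, to be read against the median of all genes at -0.13. The antisense RNA SLC25A21-AS1 stood at -0.29 and -0.02 (adjusted p = 0.337), and SLC25A5-AS1 had no ratio.

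The carnitine carrier and its relatives parted. SLC25A20, which exchanges carnitine for acylcarnitine in fatty acid oxidation, stood at log2 -0.08 with siRNA 6 and 0.02 with siRNA 8 and did not pass. SLC25A45 stood at -2.08 and -1.89, which is 23.6% and 26.9% of control for siRNA 6 and siRNA 8 (mean -1.99 ± 0.134, SD, n = 2; limma, adjusted p = 0.00123). That value rested on 1 of 3 features, and the other 2 were at exactly 0 on both arrays. SLC25A48 stood at -1.09 and -0.87 from 1 feature, 1.97-fold lower (adjusted p = 0.00490). SLC25A47, a liver member, had no ratio on both arrays.

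SLC25A40, a glutathione carrier, fell, while its relative SLC25A39 had a mean of log2 -0.24 and did not pass. SLC25A40 stood at -1.12 with siRNA 6 and -0.97 with siRNA 8, 2.06-fold lower (limma, adjusted p = 0.00344). Its 2 features with a ratio, of different accessions, were both lower and passed on their own, at means of -1.68 and -0.40, and another feature was at exactly 0 on both arrays. The mitoferrins SLC25A28 and SLC25A37, which bring iron into the matrix for haem and iron-sulphur clusters, had means of -0.15 and -0.11 and did not pass.

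The 3 uncoupling proteins and relatives with a ratio, UCP3, UCP2 and SLC25A27, all fell, where 28.6% of all genes did. So small a group was not tested as a group, and only UCP3 was at least 1.5-fold lower on both arrays. The group is named after UCP1, which lets protons return across the inner membrane and so releases the gradient that drives ATP synthesis as heat. UCP2 is the member found in many tissues. UCP3, the muscle form, had log2 ratios of -1.43 with siRNA 6 and -1.59 with siRNA 8. Its mean was -1.51 ± 0.116 (SD, n = 2; limma, adjusted p = 0.00174). Its 2 features were both lower and passed on their own, at -2.36 and -2.08 for siRNA 6 and siRNA 8 in the first and -0.50 and -1.10 in the other. The features belong to different transcript accessions of UCP3. UCP2 stood at -0.50 and -0.39, or 1.36-fold lower, from 1 feature (adjusted p = 0.0261). Centring each array ended the call (adjusted p = 0.0579), as did the test against a fold of 1.2 (0.167). SLC25A27, a brain uncoupling protein, stood at -0.68 and -0.55 (adjusted p = 0.0118), with 1 feature at -1.09 and -0.93 that passed on its own and 1 at -0.26 and -0.17 that did not. UCP1, the uncoupling protein of brown fat, was at exactly 0 on both arrays. SLC25A30 stood at -0.04 with siRNA 6 but at exactly 0 with siRNA 8, and was left out. SLC25A14, also placed in this role, was not among the carriers on the array.

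The 3 outer membrane members did not pass. MTCH2, an insertase for tail-anchored proteins, stood at log2 -0.19 with siRNA 6 and -0.47 with siRNA 8 (limma, adjusted p = 0.0886), and MTCH1, its relative, at -0.16 and -0.14. SLC25A46, which acts in mitochondrial shape, stood at 0.05 and 0.25. Of the members whose substrate is less certain, SLC25A43 stood at 0.13 and 0.16. SLC25A35 stood at -0.93 with siRNA 6 and 0.01 with siRNA 8, the widest gap between the siRNAs of any carrier, and did not pass (adjusted p = 0.223).

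**Figure D2:**
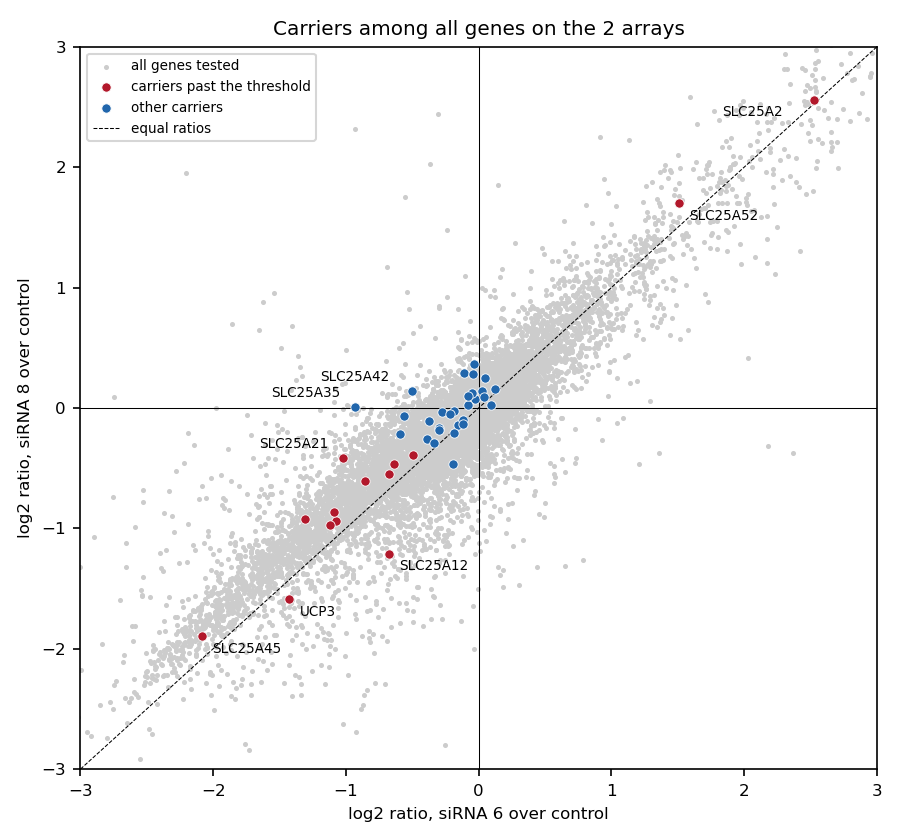
Log2 ratio with siRNA 6 (horizontal axis) and with siRNA 8 (vertical axis) for all genes tested (grey, shown from -3 to 3), carriers past the limma threshold (red) and other carriers (blue), with the line of equal ratios dashed. SLC25A35 and SLC25A42 are lower than control with siRNA 6 but not with siRNA 8, and most carriers lie above the dashed line.

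The siRNAs were then set side by side for the carriers, which shows how far the 2 CDX2 siRNAs gave the same values. In 37 of 43 carriers the ratio with siRNA 8 was above that with siRNA 6, a share of 86.0%, where 61.3% of all genes had this order. Among the linked genes listed below, it held in 88.9% of mitochondrial transporters outside the family and 81.25% of the import route. The share was 75.0% for enzymes that share substrates, 63.6% for regulators and 54.6% for solute carriers outside family 25. The order was thus not particular to the carriers. The median log2 ratio of the carriers was -0.28 with siRNA 6 and -0.11 with siRNA 8. For all genes the medians were -0.14 and -0.12. The sign was opposite in 9 of 43 carriers, against 14.8% of all genes, and these 9 did not pass limma. Both arrays may share control RNA, which the labels do not settle, so the agreement of the remaining carriers is a description. At least 1.5-fold lower were 13 of 43 carriers with siRNA 6 alone, against 24.2% of all genes. With siRNA 8 alone there were 8, against 21.7% of all genes.

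How far a carrier's value depended on the feature that measured it could be seen in 16 carriers with 2 or more features with a ratio. Within these carriers the median gap between the highest and the lowest feature mean was 0.43 on the log2 scale, against 0.48 in 4933 genes with 2 or more features. The gap was over 1 in 5 carriers (SLC25A12, SLC25A25, UCP3, SLC25A26 and SLC25A40), all of which passed as means, and over 1 in 30.8% of such genes. Every feature passed and was lower in SLC25A26, SLC25A40, SLC25A51 and UCP3, 4 of 16 carriers, where 6.81% of such genes met this rule. The gap and this rule both depend on the number of features, for which carriers and genes were not matched. These shares thus do not set the carriers apart. In SLC25A12, SLC25A25 and SLC25A27 the mean passed but 1 feature did not. Another 7 of the 14 carriers that passed had only 1 feature with a ratio, among them SLC25A2, SLC25A52 and SLC25A45.

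**Figure D3:**
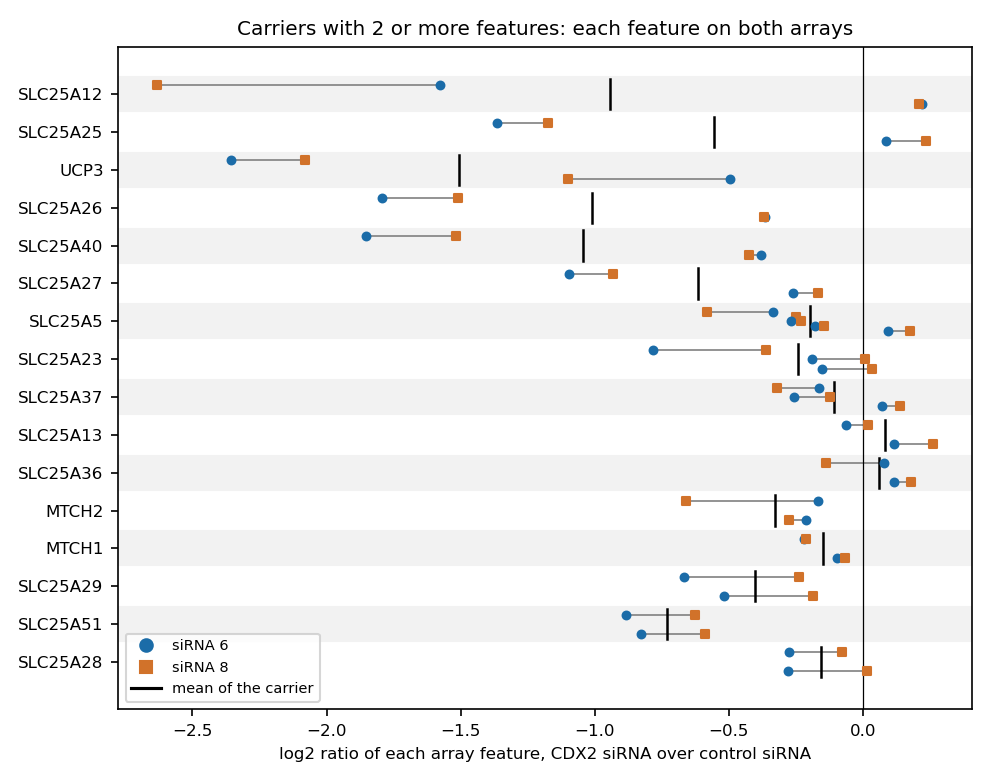
Log2 ratio (horizontal axis, CDX2 siRNA over control) of every feature with a ratio for the 16 carriers with 2 or more, with siRNA 6 as circles, siRNA 8 as squares, a grey line joining the 2 values of a feature and a black bar at the carrier's mean. The 2 features of SLC25A12 and of SLC25A25 lie on opposite sides of zero, while those of SLC25A51 nearly coincide.

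Of the 43 carriers, 37 matched a RefSeq promoter table by symbol. The 250 bases before the start were searched for CATAAA on both strands (TTTATG on the other), letters found in the motif that CDX-type homeodomains bind, and no other motif was searched. They occurred in 2 of the 37 carriers, UCP2 and SLC25A36, or 5.41%, and in 11.7% of the 27305 genes of the table, some of which have several windows. Among the matched carriers that fell they occurred in 1 of 11. The windows of the carriers had a median of 66.0% G and C and 21 CpG pairs, against 58.0% and 11 in all genes. The window of UCP2 is shown as the only carrier that both passed and held these letters, in capitals, 47 bases before the start (chr11:73983203-73983452, minus strand, GRCh38.p14). It is 1 of 2 RefSeq windows of this gene.
UCP2: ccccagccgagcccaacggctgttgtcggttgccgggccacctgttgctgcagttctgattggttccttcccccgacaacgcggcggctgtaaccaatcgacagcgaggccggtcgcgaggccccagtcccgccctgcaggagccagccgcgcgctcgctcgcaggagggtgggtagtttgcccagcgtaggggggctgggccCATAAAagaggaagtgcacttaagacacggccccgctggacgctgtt
A match of these letters is a description of the window and says nothing of binding.

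Genes that work with the carriers were grouped into 4 lists. Carriers are made in the cytosol and reach the inner membrane through TOMM70, the small TIMM proteins and the TIMM22 complex. On this import route 1 of 16 genes fell and 15 did not pass, with a median log2 ratio of -0.06. The one that fell was TOMM40, the pore of the outer membrane, at -0.56 with siRNA 6 and -0.49 with siRNA 8 (limma, adjusted p = 0.0158), and it did not pass against a fold of 1.2. For these and the following counts the background is the same, 28.6% of all genes lower and 12.1% higher.

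Among enzymes that share substrates with carriers, 6 of 24 tested fell and 18 did not pass, with a median of log2 -0.14. CRAT, which moves acetyl groups between carnitine and coenzyme A, was 3.78-fold lower, at -1.94 with siRNA 6 and -1.90 with siRNA 8 (limma, adjusted p = 0.00111). CPT1A, which makes acylcarnitines for SLC25A20, stood at -1.25 and -0.79 (adjusted p = 0.0103), from 1 of 2 features. CPT2, the enzyme on the matrix side, had a mean of -0.16 and did not pass. CPS1, the first enzyme of the urea cycle, stood at -1.94 and -1.53, the mean of 10 features (adjusted p = 0.00258). FECH, which inserts iron to make haem, stood at -1.10 and -0.79 (adjusted p = 0.00733), but with the higher of its 2 features at -0.22 it did not pass (0.148). The enzymes of the malate-aspartate shuttle, GOT1, GOT2, MDH1 and MDH2, had means between -0.22 and 0.07 and did not pass.

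Of 18 mitochondrial transporters outside the family, 2 fell and 16 did not pass, with a median of log2 -0.11. ABCB8 stood at -1.36 with siRNA 6 and -0.82 with siRNA 8 (limma, adjusted p = 0.0115). MCU, the pore of the calcium uniporter, stood at -0.66 and -0.40 (adjusted p = 0.0271), and did not pass with centring (0.0536) or against a fold of 1.2 (0.114). The 11 regulators of mitochondrial gene expression moved both ways, with 2 higher, 4 lower and 5 that did not pass. One of the 4 lower, TFAM (mean -0.40; limma, adjusted p = 0.0388), had 2 features on opposite sides of control, at -1.26 and 0.46. With the higher feature it stood above control (adjusted p = 0.0250). It did not pass with centring (0.0893) or against a fold of 1.2 (0.289), so its direction is not settled. NRF1, a factor for nuclear genes of mitochondria, stood at -1.63 and -1.23 from 1 feature (adjusted p = 0.00378). PPARG, a fatty acid receptor, stood at -1.06 and -1.73 (adjusted p = 0.00947), and PPARGC1A, a coactivator of mitochondrial genes, at -0.79 and -0.43 (adjusted p = 0.0262). PPARD, a receptor that acts on fatty acid oxidation genes, was higher, at 0.55 and 0.44 (adjusted p = 0.0194). Against a fold of 1.2, PPARD (0.0980) and PPARGC1A (0.0846) did not pass. With the higher of its 2 features, at -0.33, PPARGC1A did not pass either (0.165).

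**Figure D4:**
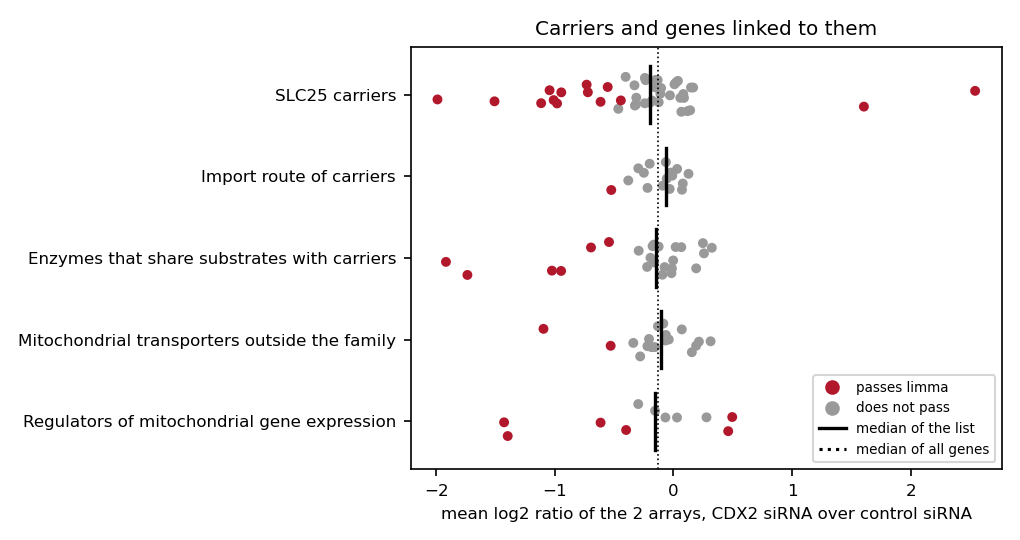
Mean log2 ratio of the 2 arrays (horizontal axis, CDX2 siRNA over control) of each carrier and of each gene in the 4 linked lists; red points pass limma, black bars are list medians and the dotted line is the median of all genes. The list medians lie between -0.20 for the carriers and -0.06 for the import route, close to that of all genes at -0.13.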

How the data were processed

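Each deposited value is a log10 ratio, Cy5 to Cy3, of 1 array feature. Base 10 was read from Agilent Feature Extraction 9.5.3, which the submitters' processing notes name, but no source used here writes it; another base would rescale every log2 value and fold. Background and dye correction, centring and the genome build are not given in the sources used here. The median of all 45015 features was 0 on both arrays, and 16311 of them were at exactly 0 on both. Over the genes used it was -0.14 with siRNA 6 and -0.12 with siRNA 8. Direction follows the dyes in the labels. Values were converted to log2. Exact zeros, a reading that no source states, were taken as not measured, and only features annotated to 1 gene were used. The table holds no intensities, so signal over background is unknown. Features of a gene that had both ratios were averaged.

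All 12842 genes were fitted with limma 3.58.1 in R 4.3.3 (intercept only, eBayes against 0, two-sided, 1 residual and 2.87 prior degrees of freedom, Benjamini-Hochberg adjusted p of 0.05). The fit was also run on simulated ratios drawn from its own variance prior with independent arrays. That run checks the code and cannot check the p-values of these arrays. Nothing states that the siRNAs were transfected in independently prepared cultures, so p-values cover the spread between the arrays alone, without that of the control or an effect of the dyes. The carriers and lists were chosen with earlier results of these data known. Named are the carriers past the threshold, those of opposite sign with a gap of 1.5-fold or more, and up to 4 genes per list by the smaller absolute ratio. TFAM was added because its features disagreed, and other carriers are given by value within their role. Alternatives covered centring, quantile normalization, the variance prior, the feature rule (the median, as the lower or the higher of a middle pair), exact zeros, RefSeq mRNA features, a fold of 1.2 in limma's treat, and each array alone. Windows were aligned with Biopython 1.88.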

Additional observations from a re-analysis of the deposited data

How the results depend on the processing

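Each ratio already sets CDX2 siRNA against the control on the same array. No further pairing between samples was possible, because both belong to 1 group and share no replicate number with another. When zeros in the table were kept as values, limma called 0 carriers higher and 0 lower of 48, with 3 and 14 at an unadjusted p under 0.05, as it called 0 and 0 of all 18334 genes (1834 and 3384 unadjusted). The pathway lists together then had 0 higher and 0 lower (7 and 14 unadjusted), and CDX2 had the same ratio of -1.42 at an adjusted p of 0.0676. That setting adds 5002 genes with no spread to the variance prior. The pathway lists together, 2 higher and 13 lower of 69, had 7 higher with each array centred, 4 higher with quantile normalization, 7 higher with the higher of the middle features, and 0 higher and 8 lower against a fold of 1.2 (1 and 12 unadjusted). The median log2 ratio of carriers was -0.0696 with centring and ran from -0.28 to -0.11 over single arrays. Carriers at least 1.5-fold lower numbered 8 and 13 on single arrays, and 4 on both arrays with the higher of the middle features.

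The other alternatives left 2 carriers higher and between 8 and 14 lower. All 14 carriers past the threshold kept their call with quantile normalization and with a robust variance prior. With centring 12 kept it, against a fold of 1.2 11, and with RefSeq mRNA features 13 of the 13 that had one. Testing each feature on its own, chosen after seeing the data, left 8 carriers lower with every feature past the threshold. The median rule, which for a gene with 2 features uses the lower value and so favours a fall, left 13 of those 14 carriers past the threshold. Taking the higher one, also chosen after seeing the data, 10 kept it. SLC25A12 and SLC25A25 then reversed, to 0.22 and 0.16 (log2), neither past the threshold, and SLC25A27 and SLC25A21 no longer passed.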
